A study of Mus musculus with 9 samples.

Results

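The tricarboxylic acid cycle was followed through 9 of its enzyme genes in intestinal epithelial cells of newborn mice that lacked the transferrin receptor Tfr1. The genes were Cs, Idh3a, Idh3b, Idh2, Ogdh, Dlst, Suclg1, Fh1 and Mdh2, chosen by name. Each was read through the brightest probe set that carried its symbol alone, among 18193 genes represented in the same way on Affymetrix mouse arrays. All 9 were measured, and none lay among the dimmest 40% of genes.

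Cells came from small intestine and proximal colon of untreated pups at postnatal day 0, with 3 arrays for each of 3 genotypes. Control pups were Tfr1fl/fl, labelled wildtype, with both receptor alleles floxed. Knockout pups were Tfr1 IEC-KO, the deletion in intestinal epithelial cells. Rescue pups were Tfr1 IEC-KO;ROSA26 Tfr1R654A/+, so they carried the same deletion and in addition 1 ROSA26 copy of a receptor carrying R654A, a change known to weaken transferrin binding strongly. The recombinase that drives the deletion is not given in the sources used here. Neither is the number of pups behind an array, so p-values measure the spread between arrays, which may be technical in part. Bulk arrays cannot tell fewer cells of a type from less RNA per cell.

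The cycle oxidises acetyl groups in the mitochondrial matrix and passes their electrons to the respiratory chain. Citrate synthase joins acetyl-CoA to oxaloacetate, and isocitrate dehydrogenase, the oxoglutarate dehydrogenase complex, succinyl-CoA synthetase, succinate dehydrogenase, fumarase and malate dehydrogenase are among the enzymes that carry the round onward. Succinate dehydrogenase holds iron in iron-sulfur clusters, while none of the enzymes encoded by the 9 genes carries an iron-sulfur cluster. In the intestine, enterocytes also feed the cycle with glutamine, which enters as oxoglutarate.

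The stretches just before the start sites of 4 genes are printed to show the regulatory sequence next to transcripts that fell in the knockout (Suclg1 and Idh2) or had the highest estimates in it (Cs and Mdh2). Each run holds the 120 bases before the start, 5′ to 3′ on the gene's strand, from RefSeq on build GRCm38.p6, with CG dinucleotides in capitals.
Suclg1, chr6:73248385-73248504, plus strand: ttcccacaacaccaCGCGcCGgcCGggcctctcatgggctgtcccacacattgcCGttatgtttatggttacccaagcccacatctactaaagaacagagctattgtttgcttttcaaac
Idh2, chr7:80115351-80115470, minus strand: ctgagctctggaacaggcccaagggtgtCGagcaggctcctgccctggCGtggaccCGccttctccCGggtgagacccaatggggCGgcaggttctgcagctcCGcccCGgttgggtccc
Cs, chr10:128337607-128337726, plus strand: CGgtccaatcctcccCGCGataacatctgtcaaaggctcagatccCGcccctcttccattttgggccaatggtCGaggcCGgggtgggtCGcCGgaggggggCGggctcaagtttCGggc
Mdh2, chr5:135778529-135778648, plus strand: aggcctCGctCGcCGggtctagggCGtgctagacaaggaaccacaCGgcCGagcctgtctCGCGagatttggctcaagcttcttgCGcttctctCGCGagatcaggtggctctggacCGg
The GC content was 50.8% for Suclg1, 70.0% for Idh2, 65.0% for Cs and 63.3% for Mdh2, against a median of 54.2% over 32851 promoter entries. The runs hold 5, 7, 10 and 12 CG dinucleotides in the same order, against a median of 3. The table held promoters of 8 of the 9 genes, without Idh3a. The Idh2 entry starts inside the span RefSeq gives the gene. Windows from 250 bases before to 50 after each start were searched on both strands for TNAAGGTCA, the motif of oestrogen-related receptors, and ACGTG, the core of the HIF motif. The first was in 0 of the 8 genes and 1.28% of all entries, and the second in 1 gene, Ogdh, and 19.6%. The NRF1 motif, also searched, was in 0 of the 8 genes and 0.971% of entries. A gene counted if any of its entries matched, and Ogdh had 6, so shares of genes and of entries are unlike measures. Such matches describe letters only and show no binding.

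Arrays were checked against their labels first. The brightest Tfrc probe set, which reads the receptor's transcript, had control values of 10.21, 10.78 and 9.88 (log2), knockout values of 10.76, 11.16 and 9.07 and rescue values of 10.91, 10.22 and 11.11, and so did not separate knockout from control. Which exons were deleted is not given in the sources used here, so this probe set checks nothing of the deletion. A second Tfrc probe set lay between 10.74 and 10.91 in rescue and between 5.57 and 6.29 in the other arrays, which marks every rescue array. The epithelial markers Epcam (12.91 to 13.55) and Vil1 (11.84 to 12.44) were bright in all arrays. Fibroblast markers were not level: 3 of 13 passed the test as higher in knockout than control, and the log2 of their summed level ran from 10.69 to 11.48 for control, 11.66 to 15.18 for knockout and 11.75 to 12.54 for rescue arrays. The mean fibroblast marker was 10.57, 10.08 and 7.38 in knockout replicates 1, 2 and 3. Of 8 smooth muscle markers 0 passed limma's test, yet their log2 summed level was 9.25 to 9.40, 9.61 to 13.44 and 9.67 to 10.27 in the same order of groups. In the knockout 2 of 8 endothelial, 1 of 6 neural and 1 of 8 leukocyte markers passed as higher, and 2 leukocyte markers as lower. Among 10 general epithelial markers 4 passed as higher and 2 as lower, and among 9 enterocyte markers 1 passed as lower. Between knockout and control 5.29% of all genes passed as higher and 8.77% as lower. Xist lay at 12.02 to 12.75 over control and knockout arrays but at 6.45 to 6.83 over rescue arrays. Eif2s3y, which is Y-linked, lay at 2.34 to 2.88 and at 9.36 to 9.70. Rescue genotype and sex of the pups therefore cannot be told apart.

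The comparison of knockout with control asks what loss of Tfr1 did to cycle transcripts. Of the 9 genes, 2 fell, Suclg1 and Idh2, 0 rose, and 7 did not pass (limma, p-values adjusted over all genes, threshold 0.05). Of all genes 14.1% were called, 8.77% as lower and 5.29% as higher in knockout. The background among bright genes was higher, at 22% once the dimmest 40% were left out. The median change of the 9 genes was -0.40 on the log2 scale, against -0.04 over all genes. Estimates were below 0 for 7 genes, as for 10209 of all 18193. In 5 of the 7, Suclg1, Idh2, Idh3b, Fh1 and Dlst, every knockout array lay below every control array, which 19.7% of all genes did.

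Suclg1 had the smallest p of the 9 genes. It encodes the alpha subunit shared by both forms of succinyl-CoA synthetase, the enzyme that makes ATP or GTP within the cycle. It ran at 11.83, 11.98 and 11.90 in control arrays against 11.07, 11.32 and 11.41 in knockout arrays (log2 RMA values of replicates 1, 2 and 3). Both groups were tight and did not overlap. The gene fell by 0.63 ± 0.11 (limma's standard error, n = 3 arrays per group), or 1.55-fold, with an adjusted p of 0.00776. Leaving out any 1 of the 9 arrays kept the call, at an adjusted p of 0.0385 or lower. The fibroblast marker level of knockout replicate 3 was near that of control, and with it as the only knockout array the change was -0.49. With the fibroblast marker mean as a covariate the change was -0.47 and did not pass (adjusted p = 0.0735).

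Idh2, the mitochondrial isocitrate dehydrogenase that makes NADPH, had the lowest estimate. It had control values of 9.03, 9.20 and 9.03 and knockout values of 8.47, 8.51 and 7.80. Knockout replicate 3 was the lowest, and of the knockout arrays it had the fibroblast marker mean closest to control. The gene fell by 0.83 ± 0.23 (1.77-fold, adjusted p = 0.0468). The call was near the threshold and was kept in 1 of the 9 fits without 1 array, that without rescue replicate 3. Without control replicates 1, 2 and 3 the adjusted p was 0.116, 0.143 and 0.120, without knockout replicates 1, 2 and 3 it was 0.0653, 0.0547 and 0.0509, and without rescue replicates 1 and 2 it was 0.0595 and 0.0653. With the fibroblast covariate the change was -1.31 (adjusted p = 0.0245). A second and dimmer Idh2 probe set lay between 6.33 and 6.57 over control and knockout arrays, with a change of -0.04.

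**Figure D1:**
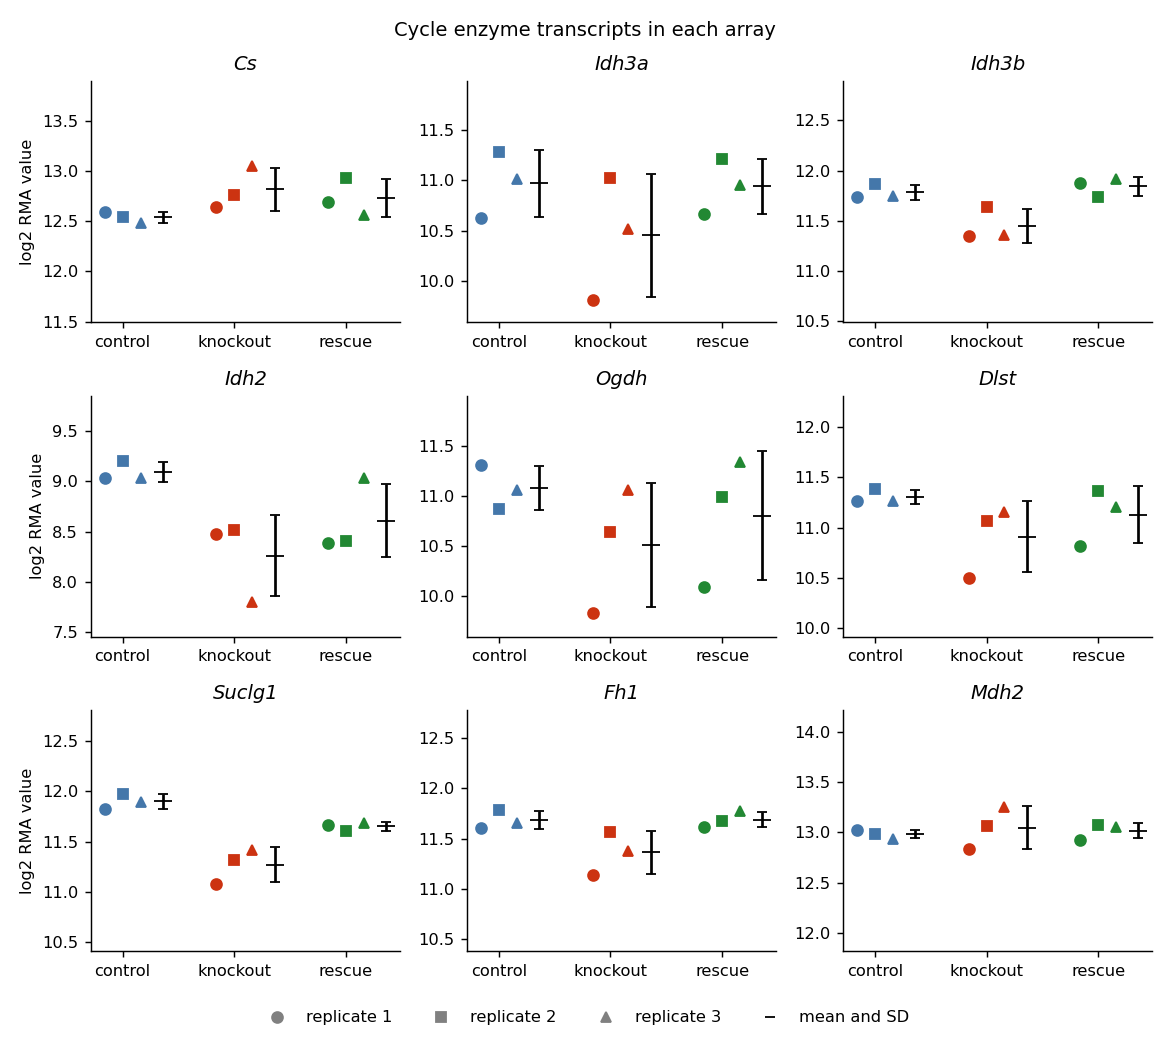
Log2 RMA values of the 9 cycle enzyme genes in each array of control, knockout and rescue pups; symbols mark replicates 1, 2 and 3, black bars show mean and SD (n = 3), and every panel spans the same height on the log2 axis. Suclg1 arrays form 3 separate levels, while knockout and control arrays of Ogdh, Idh3a and Mdh2 overlap.

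The NAD-linked isocitrate dehydrogenase is built from alpha, beta and gamma subunits, of which Idh3a encodes the catalytic alpha. Idh3a gave 10.62, 11.29 and 11.01 across control arrays, and 9.81, 11.03 and 10.52 across knockout arrays. The groups overlapped, control arrays themselves differed (SD 0.33), and the change was -0.52 ± 0.31 (adjusted p = 0.299). Idh3b, the beta subunit, ran at 11.73, 11.87 and 11.75 in control arrays against 11.35, 11.64 and 11.36 in knockout arrays. Its groups were apart, by -0.34 ± 0.11, but missed the threshold (adjusted p = 0.0785), and it passed without knockout replicate 2 (0.0391).

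Ogdh and Dlst encode the first and second enzymes of the oxoglutarate dehydrogenase complex. Ogdh had control values of 11.31, 10.87 and 11.06 and knockout values of 9.84, 10.64 and 11.05. Knockout replicate 3 lay within the control range while replicate 1 was far below it, and the change of -0.57 ± 0.37 did not pass (adjusted p = 0.352). Its direction turned with the fibroblast covariate, to 0.26. Dlst gave 11.27, 11.39 and 11.27 across control arrays, and 10.50, 11.06 and 11.15 across knockout arrays. The groups did not overlap, and the change of -0.40 ± 0.20 did not pass (adjusted p = 0.214).

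Fh1, the fumarase gene, ran at 11.61, 11.78 and 11.66 in control arrays against 11.14, 11.57 and 11.38 in knockout arrays. The knockout arrays were all lower, by -0.32 ± 0.12 on average, without a call (adjusted p = 0.118). Cs and Mdh2, which open and close the round, stood apart from the other 7 genes in the sign of their estimates. Cs, citrate synthase, had control values of 12.59, 12.54 and 12.48 and knockout values of 12.64, 12.76 and 13.05. Every knockout array lay above every control array, as in 12.7% of all genes, and the change of 0.28 ± 0.14 did not pass (adjusted p = 0.215). Mdh2, the mitochondrial malate dehydrogenase, gave 13.02, 12.99 and 12.94 across control arrays, and 12.83, 13.06 and 13.25 across knockout arrays. Its groups overlapped, the change was 0.07 ± 0.12, and the 95% interval ran from -0.20 to 0.34 (adjusted p = 0.767). That sign turned without knockout replicate 3, to -0.035.

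**Figure D2:**
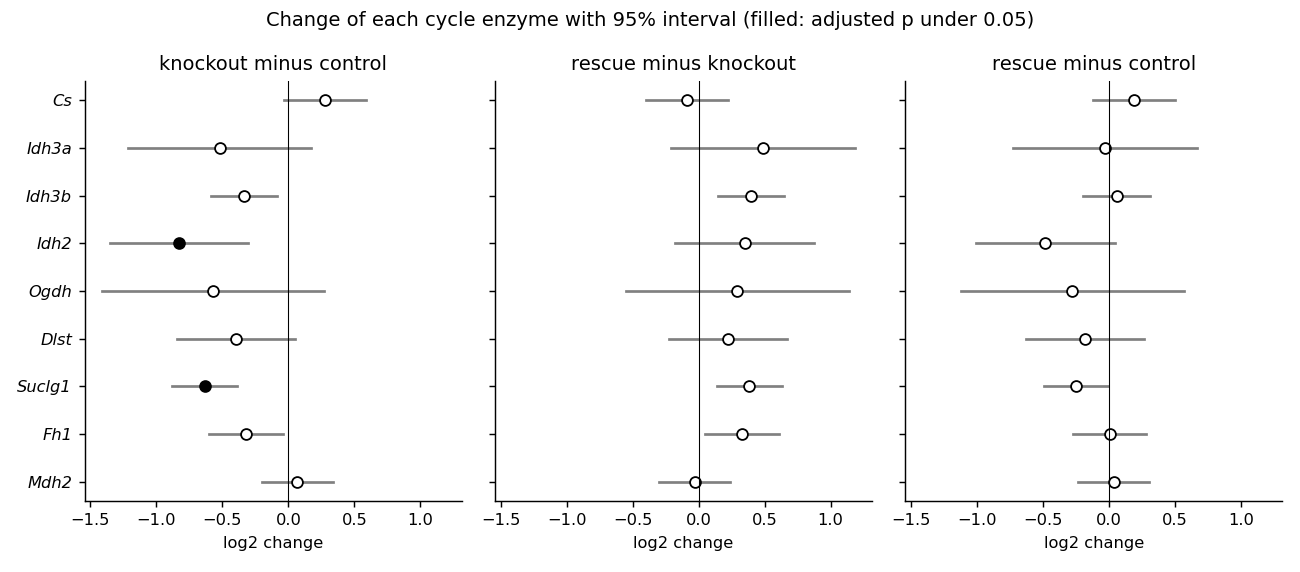
Log2 change of each cycle enzyme gene in the 3 comparisons, with limma's unadjusted 95% interval from 3 arrays per group; filled points have an adjusted p under 0.05. Suclg1 (-0.63) and Idh2 (-0.83) in knockout minus control are the filled points, and the intervals of rescue minus control include 0 for 8 of the 9 genes.

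Knockout arrays differed among themselves more than control arrays did. Over the 9 genes the median SD was 0.08 among control arrays, 0.21 among knockout arrays and 0.19 among rescue arrays, against 0.10, 0.23 and 0.14 over all genes. Knockout replicate 1 was the lowest of the 3 knockout arrays for 8 genes, all but Idh2, and the lowest of all 9 arrays for 7. The median deviation of the 9 genes from the control mean was -0.62, -0.14 and -0.30 in knockout replicates 1, 2 and 3, and -0.24, -0.01 and 0.02 in the rescue replicates. Knockout replicate 2 had a fibroblast marker mean near that of replicate 1 and, of the knockout arrays, the smallest median deviation of the cycle genes. Pancreas markers also differed between arrays. The median deviation of 6 such markers from the control mean was 0.10, 2.14 and 0.51 in knockout replicates 1, 2 and 3. In the rescue replicates it was -0.09, -0.03 and 1.70. The part of other cell types in these values was not tested beyond the fits named above. Without knockout replicate 1 the median change of the 9 genes was -0.21.

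**Figure D3:**
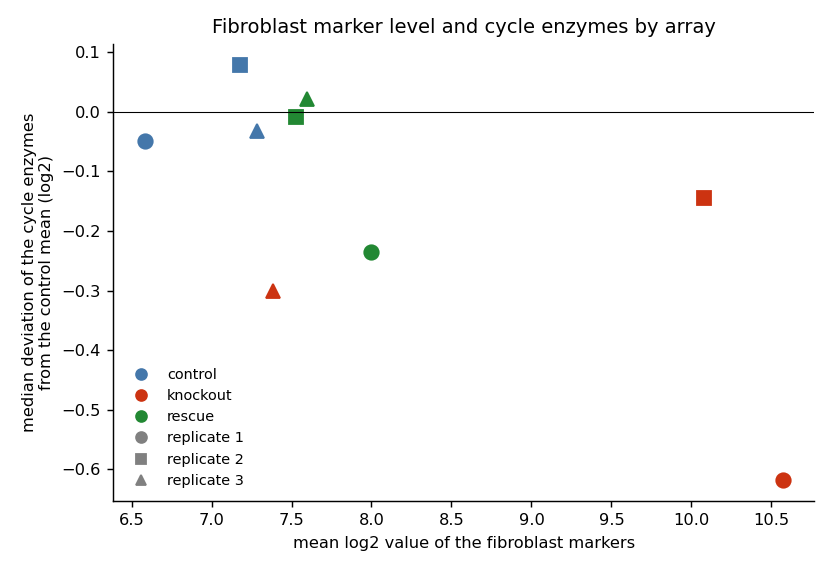
Median deviation of the 9 cycle enzyme genes from the control mean (log2) against the mean log2 value of 13 fibroblast markers, 1 point per array. Knockout replicates 1 and 2 lie to the right at 10.57 and 10.08, with deviations of -0.62 and -0.14, while knockout replicate 3 lies at 7.38 with -0.30.

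The comparison of rescue with knockout asks whether the R654A receptor moved cycle transcripts of cells without the normal one. None of the 9 genes passed limma's test, where 2.31% of all genes did (1.23% higher, 1.08% lower). An unadjusted p under 0.05 was found for 3 of them, and for 3436 of all 18193 genes. The estimates pointed up for 7 genes, as for 10384 of all 18193, and the median change was 0.33, against 0.04 over all genes. Rescue arrays lay wholly above knockout arrays for Idh3b, Suclg1 and Fh1, as in 10.6% of all genes. Suclg1 had rescue values of 11.67, 11.60 and 11.69, a change of 0.38 ± 0.11 (adjusted p = 0.112). It passed without knockout replicate 3 (0.0234) and with array weights (0.0341), fits in which 15.4% and 13.5% of all genes were called. Idh3b had 11.88, 11.73 and 11.91, a change of 0.39 ± 0.11 (adjusted p = 0.112). Fh1 had 11.62, 11.68 and 11.77, a change of 0.33 ± 0.12 (adjusted p = 0.202).

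The other rescue values overlapped with the knockout. Idh3a had rescue values of 10.66, 11.21 and 10.95, with a change of 0.49 ± 0.31 (adjusted p = 0.430). Idh2 had 8.39, 8.41 and 9.03, so replicates 1 and 2 lay in the knockout range and replicate 3 at the control level, and the change was 0.35 ± 0.23 (adjusted p = 0.461). Ogdh had 10.09, 10.99 and 11.33, with replicate 1 below all control arrays, and Dlst had 10.81, 11.37 and 11.20. Their changes were 0.29 ± 0.37 and 0.22 ± 0.20, and that of Ogdh turned to -0.04 without knockout replicate 1. Cs had rescue values of 12.69, 12.93 and 12.56, and Mdh2 of 12.93, 13.07 and 13.06. Their changes from the knockout were -0.09 ± 0.14 and -0.03 ± 0.12, the smallest in size of the 9 genes.

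The comparison of rescue with control asks how far the rescued epithelium differed from normal. None of the 9 genes passed limma's test, where 0.126% of all genes did (0.055% higher, 0.0715% lower). An unadjusted p under 0.05 was found for 1, Suclg1, and for 1205 of all 18193 genes. Suclg1 stayed below control in every rescue array, as did 9.9% of all genes, by -0.25 ± 0.11 (adjusted p = 0.743). Idh2 had the lowest estimate, at -0.48 ± 0.23 (adjusted p = 0.829). Idh3a, Idh3b, Fh1 and Mdh2 had estimates between -0.03 and 0.06. The 95% intervals were -0.73 to 0.66 for Idh3a and -1.12 to 0.57 for Ogdh, so for these genes a change of the size estimated for the knockout was not excluded at this precision.

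Group means fell in the order knockout, rescue, control from low to high for Suclg1, Idh2, Idh3a, Ogdh and Dlst. In Suclg1 alone of these both steps, 0.38 and 0.25, were larger than the SD of the groups on either side. In Idh2 the upper step (0.48) was larger than those SDs and the lower (0.35) was not, and in Idh3a, Ogdh and Dlst neither was. For Idh3b and Fh1 the rescue mean lay above control by less than the SD, at 0.06 and 0.01, with the knockout below both by more than the SD. For Cs the order was control, rescue, knockout, with the lower step (0.19) just above the larger SD, and for Mdh2 no step exceeded the SD. The comparisons share arrays, so a low or high knockout array moves both of its comparisons.

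Other probe sets of the genes were examined because 7 of the 9 genes had more than 1. Together the genes had 22 probe sets, 2 of them among the dimmest 40% of genes. Of the 11 further probe sets above that level, 8 were lower in knockout than control and 4 did not overlap on the lower side. Shares over all probe sets were not computed. Over all genes 10209 of 18193 estimates were below 0, and 19.7% did not overlap on the lower side. Of the 11 probe sets 0 had an adjusted p under 0.05 with limma across the 45101 probe sets. Suclg1 passed there (0.00955) and Idh2 did not (0.0571). All 3 probe sets of Cs were higher in every knockout than in every control array, with changes of 0.26 to 0.33. The further probe sets of Idh3a had changes of -0.85 (adjusted p = 0.0758 over all probe sets), -0.60 and -0.08. Those of Dlst above the dimmest 40% had -0.56 and -0.01. Ogdh had a second probe set at -0.66 (adjusted p = 0.0624), with knockout arrays at 6.65, 6.84 and 6.94 against 7.40 to 7.52 in control. The Idh3b pair of bright probe sets gave -0.34 and -0.38, and both Mdh2 probe sets lay close to 0, at 0.02 and 0.07.

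A further 8 genes of the cycle were measured. All 8 estimates were below 0 in knockout against control, with a median of -0.32, as were 10209 of all 18193. Of the 8 genes 2 fell and 6 did not pass, where 8.77% of all genes fell. Sdhb, the iron-sulfur subunit of succinate dehydrogenase, ran at 12.20, 12.34 and 12.29 in control arrays against 11.70, 11.83 and 11.86 in knockout arrays. It fell by 0.48 ± 0.10 (adjusted p = 0.0142), and missed the threshold without control replicate 2 (0.0610) or 3 (0.0645). Idh3g, the gamma subunit of isocitrate dehydrogenase, whose gene lies on the X chromosome, had control values of 11.22, 11.30 and 11.14 and knockout values of 10.73, 10.82 and 10.78. It fell by 0.44 ± 0.10 (adjusted p = 0.0243), a call lost without any 1 of the control arrays or knockout replicate 1 (0.0648 to 0.0948). Rescue arrays of Idh3g read 11.21, 11.07 and 11.36, back in the control range, with a change from knockout of 0.43 ± 0.10 (adjusted p = 0.0679).

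The remaining subunits gave smaller differences. Sdha, the flavoprotein of succinate dehydrogenase, changed by -0.30 ± 0.12, and its membrane anchors Sdhc and Sdhd by -0.27 ± 0.11 and -0.34 ± 0.11 (adjusted p = 0.139, 0.132 and 0.0722). Dld, the third enzyme of the oxoglutarate dehydrogenase complex, had -0.33 ± 0.18 (adjusted p = 0.256). Sucla2 and Suclg2, the beta subunits that pair with the Suclg1 product and set the choice of ADP or GDP, had -0.30 ± 0.14 and -0.19 ± 0.08 (adjusted p = 0.182 and 0.148). In rescue against knockout all 8 estimates were above 0 (median 0.32) and 0 passed limma's test, with 5 at an unadjusted p under 0.05. Over all 18193 genes 10384 estimates were above 0, and 3436 genes had an unadjusted p under 0.05. The number called between knockout and control was 6 without knockout replicate 3, 1 without control replicate 1 or knockout replicate 1, and 0 without control replicate 2 or 3. The share of all genes called was 27.5% without knockout replicate 3 and 8.95% without knockout replicate 1. Without control replicates 1, 2 and 3 that share was 6.06%, 6.66% and 5.14%, against 14.1% with all arrays. With the fibroblast covariate, where 10.6% of all genes were called, 0 of the 8 passed. Sdhb and Idh3g kept changes of -0.41 and -0.43 there (adjusted p = 0.0972 and 0.113). With knockout replicate 3 as the only knockout array their changes were -0.415 and -0.434.

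**Figure D4:**
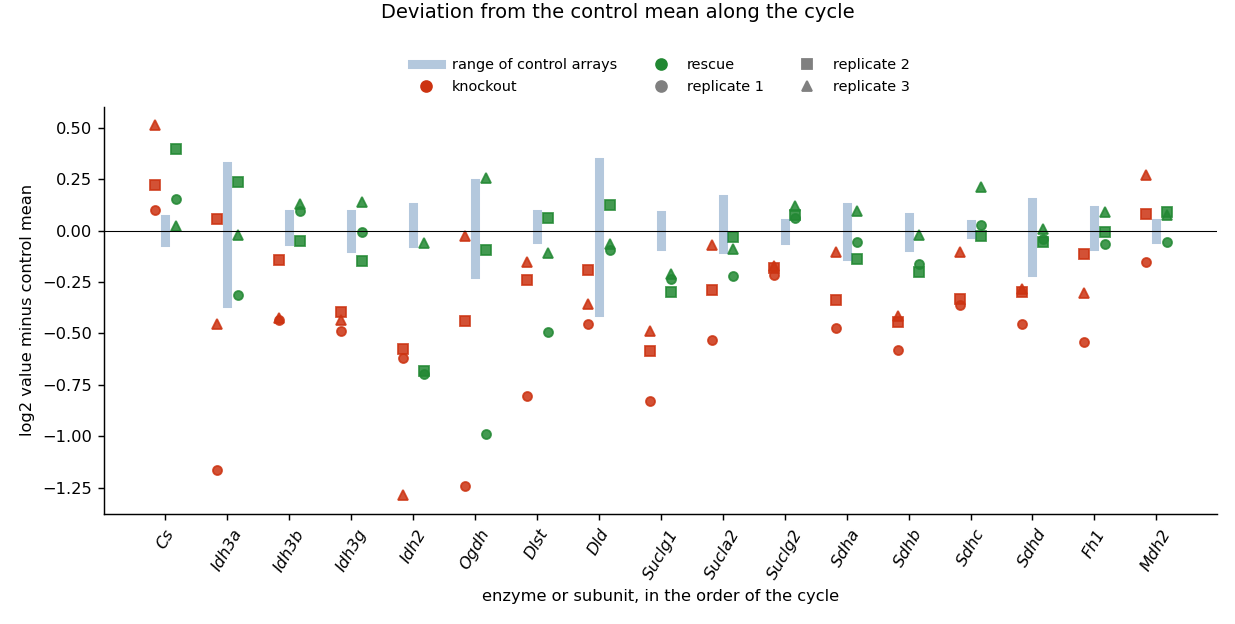
Log2 value minus the control mean for each knockout and rescue array, for 17 enzymes and subunits in the order of the cycle; blue bars span the control arrays and symbols mark replicates. All 3 knockout arrays of Cs lie above 0 and those of Mdh2 lie on both sides of it, and the knockout arrays of Suclg1, Sdhb and Idh3g lie below the control bars.

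Changes among genes that bring pyruvate to the cycle ran from -1.57 to 3.42. Of 13 measured, 2 rose and 3 fell in knockout against control, where 5.29% of all genes rose and 8.77% fell. Pdk4, a kinase that switches off pyruvate dehydrogenase, read 8.70 to 9.49 in control, 12.28 to 13.03 in knockout and 9.44 to 10.62 in rescue arrays. It rose by 3.42 ± 0.34 in the knockout (adjusted p = 9.87e-04) and fell by 2.44 ± 0.34 from knockout to rescue (adjusted p = 0.0121). Pdk3, a kinase of the same family encoded on the X chromosome, went the other way, with 9.49 to 9.68 in control, 7.99 to 8.05 in knockout and 8.86 to 9.22 in rescue arrays. It fell by 1.57 ± 0.12 (adjusted p = 3.25e-04) and rose by 1.06 ± 0.12 in rescue against knockout (adjusted p = 0.00570).

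The phosphatases that reactivate the enzyme also parted. Pdp1 rose by 1.69 ± 0.38 (adjusted p = 0.0213) from a control level among dim genes, 5.01 to 5.67, and missed the threshold without control replicate 1 (0.0723) or 3 (0.0868). Pdp2 fell by 1.11 ± 0.20 (adjusted p = 0.00948). Pdhx, which anchors the third enzyme of the pyruvate dehydrogenase complex, fell by 0.89 ± 0.20 (adjusted p = 0.0224), a call lost without control replicate 2 (0.0857) or 3 (0.0777) or knockout replicate 1 (0.0640). The core subunits Pdha1, Pdhb and Dlat did not pass, with changes of -0.29, -0.19 and -0.57.

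Of 9 measured genes of glutamine, propionate and ketone entry, 1 rose and 2 fell, where 5.29% of all genes rose and 8.77% fell. Oxct1, which activates ketone bodies with succinyl-CoA, read 8.17 to 8.23 in control, 9.89 to 10.67 in knockout and 8.86 to 9.93 in rescue arrays, and rose by 2.02 ± 0.28 (adjusted p = 0.00320). Pccb, a subunit of propionyl-CoA carboxylase on the way to succinyl-CoA, fell by 0.90 ± 0.10 (adjusted p = 0.00156) and rose by 0.79 ± 0.10 in rescue against knockout (adjusted p = 0.00993). Aldh5a1, which makes succinate, fell by 0.93 ± 0.17 (adjusted p = 0.00934). The rescue against knockout calls of Pdk4, Pdk3 and Pccb were lost when only the arrays of those groups were fitted (adjusted p = 0.0692, 0.0617 and 0.0727).

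Of 16 genes of cytosolic counterparts and metabolite exchange, 0 rose and 3 fell, where 5.29% of all genes rose and 8.77% fell. Slc25a13, a mitochondrial aspartate-glutamate carrier, fell by 0.97 ± 0.17 (adjusted p = 0.00829). Me2, a mitochondrial malic enzyme, fell by 0.79 ± 0.15 (adjusted p = 0.0121), and missed the threshold without control replicate 3 (0.0587). Got2, the mitochondrial aspartate aminotransferase, fell by 0.66 ± 0.15 (adjusted p = 0.0223), and missed it without any 1 of the control arrays or knockout replicate 1 (0.0621 to 0.0869). The cytosolic enzymes Mdh1 and Idh1 had changes of -0.05 ± 0.09 and 0.01 ± 0.28.

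Among 9 genes that make and attach lipoate, the cofactor carried by the Dlst and Dlat proteins, 1 fell, Mcat, by 0.40 ± 0.11 (adjusted p = 0.0464), which none of the 9 fits without 1 array kept (adjusted p up to 0.150). Lias, the iron-sulfur enzyme that inserts the sulfur atoms, had a change of 0.15 ± 0.10. Of 13 regulators of mitochondrial genes 2 fell. The share of all genes that fell, 8.77%, stands beside both this count and that of the lipoate genes. Sirt3, a mitochondrial deacetylase, fell by 0.84 ± 0.14 (adjusted p = 0.00751), and Esrra, an oestrogen-related receptor, fell by 0.76 ± 0.18 (adjusted p = 0.0260). Esrra read 9.09, 9.51 and 9.91 in knockout against 10.22 to 10.29 in control arrays, and missed the threshold without any 1 of the control arrays or knockout replicate 2 (0.0612 to 0.0923). In rescue against control 0 genes of these lists passed limma's test. Per list 0 to 3 had an unadjusted p under 0.05, as had 1205 of all 18193 genes. With the fibroblast covariate Pdk3, Pdk4, Pccb, Oxct1 and Aldh5a1 stayed past the threshold between knockout and control, at -1.53, 3.78, -0.98, 1.54 and -1.21 (adjusted p up to 0.0344). The other 9 genes called in these lists did not pass there. Among them Pdp1 moved to 0.83, Pdp2 to -0.62 and Esrra to -0.30 (adjusted p = 0.252, 0.0941 and 0.299). With knockout replicate 3 as the only knockout array Pdp1, Pdp2, Slc25a13 and Esrra had changes of 1.04, -0.74, -0.69 and -0.36.

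**Figure D5:**
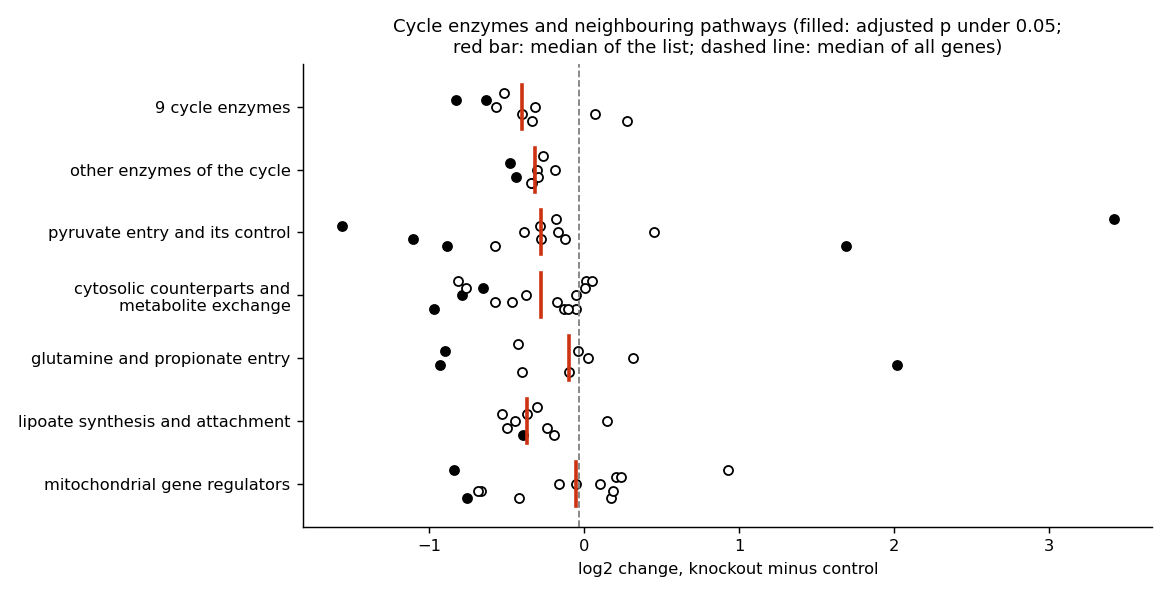
Log2 change in knockout minus control for the 9 cycle enzyme genes and for 6 lists of neighbouring pathways, 1 point per gene; filled points have an adjusted p under 0.05, red bars are list medians and the dashed line is the median of all genes (-0.04). The 9 genes have a median of -0.40 and run from -0.83 to 0.28, and the other cycle enzymes a median of -0.32, from -0.48 to -0.19. Pdk4 at 3.42 and Pdk3 at -1.57 mark the ends of the pyruvate list.

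The 9 genes did not share a single profile. Deviations of each gene from its own mean over the 9 arrays were set against the mean profile of the 9 genes, by the root-mean-square difference (log2). The difference was smallest for Fh1 (0.08) and Dlst (0.11) and largest for Idh2 (0.35) and Ogdh (0.34). Among 8979 genes outside the lists with a mean above the median gene, 5 lay closest to the mean profile: Cope, Bcl2l2, Stx18, Psme3 and Odr4, at 0.05 to 0.06 against a median of 0.28. Cope encodes a subunit of the coatomer of Golgi vesicles and ran at 10.76, 10.85 and 10.77 in control arrays, 10.24, 10.53 and 10.60 in knockout arrays and 10.48, 10.76 and 10.73 in rescue arrays.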

How the data were processed

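RNA was hybridised to 9 arrays, 3 per genotype. The authors deposited log2 RMA values, 1 per probe set, per the submitters' processing notes, which name RMA and Partek 6.5 but give no background step. The 45101 values per array were used without further scaling, with array medians between 5.93 and 6.00 and 0 identical pairs among 36. Symbols came from the platform annotation of the probe sets (34958 with 1 symbol, 932 with several, 9211 with none), and 18032 of 18194 Entrez identifiers matched RefSeq. A gene took its brightest single-symbol probe set.

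limma 3.58.1 in R 4.3.3 fitted 3 group means to all 9 arrays (lmFit, eBayes). Tests were two-sided, with Benjamini-Hochberg adjustment over 18193 genes and a threshold of 0.05. The fit was tested on simulated data in which every group had the same spread. The median SD over all genes was 0.10 among control and 0.23 among knockout arrays, a difference the simulation did not cover. An exact permutation test of 3 against 3 arrays cannot go below 0.10. Arrays have no depth; their number limits precision (median standard error 0.15).

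The genes, 6 pathway lists and the marker lists were chosen with earlier results of these data known. Named genes are the 9 genes, Tfrc, the other cycle enzymes, up to 4 called genes per list and comparison with the smallest p, and the 5 nearest profiles; other genes were named after their values were seen, to describe their enzyme complexes or check the arrays. Of 179 listed symbols 165 were measured. A further gene of the cycle is not reported here. Alternatives covered probe choice, scaling, a filter on dim genes, variance model, weights, arrays fitted, a replicate block, a fibroblast covariate and each array left out.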

Additional observations from a re-analysis of the deposited data

How the results depend on the processing

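The number of the 9 genes called between knockout and control was 2, and it was 1 with the mean of all probe sets, without probe sets ending in _s_at, _x_at or _a_at, with the intensity trend and robust variance, with only the arrays of the groups compared, with the replicate block and with the fibroblast covariate. It ran from 1 to 2 in the fits without 1 array, where 5.14% to 27.5% of all genes were called. The call lost was that of Suclg1 with the covariate and that of Idh2 in the others. Between rescue and knockout the number was 0, 1 with array weights, and 0 to 1 without 1 array. Of all genes 2.31% were called there, 13.5% with array weights, and 0.577% to 15.4% without 1 array. Between rescue and control the number was 0 in all 20 alternatives run. Same-numbered arrays had correlations of deviations from -0.22 to 0.40, with 2 of 9 above 0.1. Arrays with different numbers were not compared in this way, so whether the numbers pair the arrays was not settled.

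Signs that turned belonged to estimates with no call. Without probe sets ending in _s_at, _x_at or _a_at, Idh2 was -0.084 in rescue against knockout and Idh3b -0.0193 in rescue against control. Fh1 and Mdh2 had no probe set left there. Centring gave Mdh2 0.0027 (rescue against knockout) and Fh1 -0.003 (rescue against control), and array weights gave Cs 0.0046 (rescue against knockout). The fibroblast covariate gave Ogdh 0.26 in knockout against control and -0.29 in rescue against knockout, Dlst -0.0379 and Sucla2 -0.0045 in the latter, and Idh3a 0.0146 in rescue against control. Knockout replicate 3 alone gave Ogdh -0.25, Dlst -0.0285 and Sucla2 -0.0413 in rescue against knockout. Without 1 array, rescue against knockout ran from -0.19 to 0.0299 for Cs, -0.0421 to 0.65 for Ogdh and -0.14 to 0.0726 for Mdh2. Rescue against control ran from -0.21 to 0.13 for Idh3a, -0.54 to 0.0808 for Ogdh and -0.0362 to 0.0552 for Fh1, and knockout against control from -0.035 to 0.18 for Mdh2. The cause was not tested. The dimmest probe sets of Idh3b and Dlst (means 5.37 and 6.16) lay among the dimmest 40% of genes, below 6.25. The second Idh2 probe set lay just above that level, at 6.42. How near these signals were to background was not measured.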
